A study of Homo sapiens with 2 samples.

Results

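The genes described here encode the enzymes, carriers and lipid droplet proteins that make, burn and store fatty acids. They were taken by symbol from a list of 57, and all 57 were found among the 57820 genes in the tables. Poly(A) RNA-seq was available for 2 human liver cancer lines, with 1 library each. SKHEP1, labelled as endothelial cells, and HepG2, labelled as hepatocellular carcinoma, were both unmodified wild-type cultures grown in medium with 10% fetal bovine serum. The study concerned the long noncoding RNA PURPL and p53, and the labels name no lipid treatment of these libraries.

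Fatty acids are made in the cytosol from citrate-derived acetyl-CoA, then lengthened and desaturated at the endoplasmic reticulum. Once activated to acyl-CoA they are either imported into mitochondria through the carnitine shuttle and shortened by beta-oxidation, or joined to glycerol as triglyceride. Triglyceride is kept in droplets coated by perilipin and CIDE proteins. Hepatocytes carry out all of these steps, and export part of the triglyceride in lipoproteins.

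Of the hepatocyte markers, 6 of 8 (ALB, APOB, APOA1, TTR, HNF4A and AHSG) had 0 counts in SKHEP1, and all 8 were at least 4-fold higher in HepG2, with a summed level of 94.1 CPM (counts-per-million) in SKHEP1 and 61554 in HepG2. Their part in the lipid gene differences was not tested. Of 8 endothelial markers, ENG was abundant in SKHEP1 with 1926 counts, against 18 in HepG2. The other 7 did not exceed 10 counts in SKHEP1 or 18 in HepG2, with KDR, ERG and CLDN5 at 0 in both. CDH5 had 1 count in SKHEP1 and 5 in HepG2, VWF 4 and 14, TEK 5 and 0, and TIE1 10 and 18. Of 5 adipocyte markers, ADIPOQ, LEP and CIDEA had 0 counts in both lines, CFD had 16 in SKHEP1 and 6 in HepG2, and PPARG had 26 and 321. Of 6 macrophage markers, C1QA was at 0 in both, and PTPRC, CSF1R and CD163 did not exceed 5 counts. CD14 had 40 and 58, and CD68, a lysosomal protein also made outside macrophages, had 2576 and 1367. Totals were 19940562 and 22477743 counts in SKHEP1 and HepG2. The limit set for a count of 0 was a floor of 3 counts, or 0.148 CPM for SKHEP1 and 0.135 for HepG2, and the upper end of the 95% Poisson interval of a 0 count was 0.183 and 0.166 CPM. Folds given as "at least" are in CPM against that floor and leave out the counting error of both libraries. They are not 95% lower limits, which were lower (for FABP1, 404-fold in place of 497-fold). With 1 library per line there is no replicate spread and no test, and fewer expressing cells cannot be told apart from less RNA per cell. The 95% intervals cover counting error only. They treat reads as independent molecules, which cannot be checked for reads that carry no molecular identifier, so they may be too narrow.

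The lipid genes that differed strongly between the lines were mostly higher in HepG2. In SKHEP1 44 members reached 10 counts, in HepG2 50, and in both lines 41. Of the 15455 genes compared, 13846 reached 10 counts in SKHEP1 and 13418 in HepG2. The 4 members under 10 counts in both were CPT1C, FABP3 and LPL, at 0 in each library, and FABP4, at 1 count in SKHEP1 against 0 in HepG2. Of the 53 compared, 18 (34.0%) were at least 4-fold higher in HepG2, against 13.0% of all 15455 genes compared. In SKHEP1 5 (9.43%) were at least 4-fold higher, against 16.5% of all genes compared. The remaining 30 (56.6%) lay within 4-fold, against 70.6% of all genes compared. Of these, 17 lay within 2-fold, a limit at which no share over all genes is given. The median log2 ratio, HepG2 over SKHEP1, was 0.96 for the members and -0.03 for all genes compared. In the plot of members among all genes, the most abundant member, SCD, lies within 4-fold, on the HepG2 side.

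**Figure D1:**
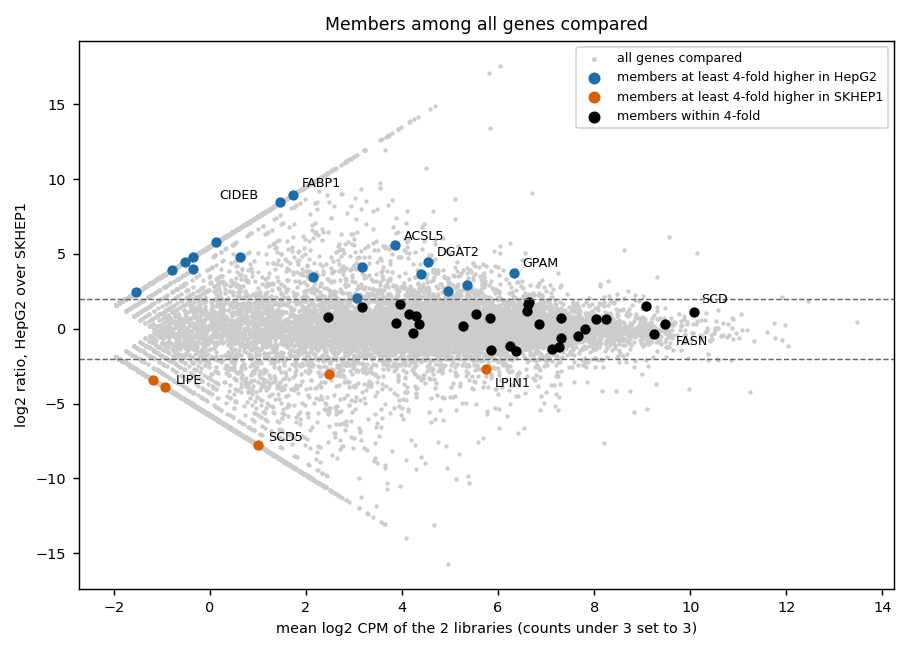
Log2 ratio of CPM, HepG2 over SKHEP1, against mean log2 CPM for the 15455 genes compared (grey) and the 53 members compared (coloured by direction), with dashed lines at 4-fold. The 18 members at least 4-fold higher in HepG2 lie above the upper line and the 5 higher in SKHEP1 below the lower one, while SCD and FASN, on the right, lie within 4-fold.

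Both lines expressed the core of de novo synthesis at similar levels. ATP citrate lyase (ACLY), which makes cytosolic acetyl-CoA, had 13722 counts in SKHEP1 against 11894 in HepG2. It was 1.27-fold higher in SKHEP1 (95% counting interval 1.24 to 1.30). Acetyl-CoA carboxylase 1 (ACACA), the cytosolic enzyme that makes malonyl-CoA, had 4886 and 3826 counts and was 1.40-fold higher in SKHEP1 (1.34 to 1.46). Fatty acid synthase (FASN), which builds palmitate, went the other way, with 12682 and 17670 counts, 1.27-fold higher in HepG2 (1.24 to 1.30). These enzymes therefore differed by less than 1.5-fold in CPM, in both directions.

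Acetyl-CoA carboxylase 2 (ACACB), whose malonyl-CoA is made at the mitochondrial surface and inhibits the carnitine shuttle, was scarcer in both lines. It had 176 counts in SKHEP1 against 612 in HepG2, 3.17-fold higher in HepG2 (2.67 to 3.77). This value depends on the unit. The isoform-weighted gene length that RSEM, the quantification program, assigned to ACACB was 5046 bases in SKHEP1 and 7753 in HepG2. In transcripts-per-million (TPM), which divides by length, the level was 2.85 and 5.6, a ratio of 1.96. Of the 34 members with at least 100 counts in both libraries, ACACB alone had a length that differed by over 1.5 times between the lines. For ACACA the TPM levels were 77.9 in SKHEP1 and 44.0 in HepG2, a HepG2 over SKHEP1 ratio of 0.565.

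The desaturases showed a line difference between paralogues. SCD, the main stearoyl-CoA desaturase, which makes oleate, was the most abundant member by count in both lines, with 14930 counts in SKHEP1 against 35143 in HepG2. It was 2.14-fold higher in HepG2 (2.10 to 2.19). SCD5, a second stearoyl-CoA desaturase, had 595 counts in SKHEP1 against 0 in HepG2, and against the floor of 3 counts per library was at least 218-fold higher in SKHEP1. With lengths taken into account, as in TPM with the same floor, its log2 ratio was -7.13 in place of -7.77. SCD5 made up 6.72% of the summed TPM of the pair in SKHEP1, so SCD was the main form in both lines. The promoters of this pair are printed because the paralogues differed in opposite directions, with CCAAT in capitals, or its reverse complement where it lies on the other strand. They are from RefSeq (build GRCh38.p14), 250 bases before to 50 bases after the annotated start, 5′ to 3′ on the gene's strand. SCD lies at chr10:100346983-100347282 on the plus strand and SCD5 at chr4:82798747-82799046 on the minus strand.
SCD: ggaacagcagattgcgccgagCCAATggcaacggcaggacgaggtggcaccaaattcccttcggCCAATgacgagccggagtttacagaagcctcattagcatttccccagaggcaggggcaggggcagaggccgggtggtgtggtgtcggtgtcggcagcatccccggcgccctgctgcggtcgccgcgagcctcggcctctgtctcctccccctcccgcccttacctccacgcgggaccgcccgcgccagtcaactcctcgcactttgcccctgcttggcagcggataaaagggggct
SCD5: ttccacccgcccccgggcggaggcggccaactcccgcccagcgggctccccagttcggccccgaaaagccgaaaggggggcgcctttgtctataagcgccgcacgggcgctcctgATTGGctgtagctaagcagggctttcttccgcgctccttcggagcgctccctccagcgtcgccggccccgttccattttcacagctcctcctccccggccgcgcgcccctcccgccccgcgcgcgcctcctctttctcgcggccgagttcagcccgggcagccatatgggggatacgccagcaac

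CCAAT, the letters of the NF-Y binding box, is present in both of these promoters. Among the first-listed promoters of the 47 members found by symbol, 15 (31.9%) held CCAAT on either strand, against 35.7% of the first-listed promoters of 27305 genes. CCAAT was found in 4 of 13 promoters of members higher in HepG2, 2 of 5 of those higher in SKHEP1 and 8 of 27 of those within 4-fold. The E-box CACGTG was in 2 member promoters (4.26%, against 7.43% of all), those of ELOVL5 and PLIN2. Of 2 further strings searched on both strands, TCACNCCAC for SREBP was found in PNPLA2 and CAAAGTCC for HNF4A in SLC27A5. These strings stood in 1.15% and 1.21% of all promoters. None of the 4 strings contains another, and a match here describes letters, not bound factors.

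The polyunsaturated desaturases and the elongases lay within 4-fold. FADS1, the delta-5 desaturase, had 4560 counts in SKHEP1 against 4881 in HepG2, a 1.03-fold difference toward SKHEP1 (0.985 to 1.07) that turned toward HepG2 with DESeq2 size factors. FADS2, the delta-6 desaturase, had 1292 and 3289 counts and was 2.32-fold higher in HepG2 (2.17 to 2.47). FADS1 and FADS2 are neighbours on opposite strands with overlapping exons. The exons of FADS2 also overlap those of FEN1 on the same strand, which had 2811 and 3301 counts. The strand setting of RSEM is not given in the sources used here, and whether reads were exchanged between overlapping genes was not tested.

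The elongases differed in both directions. ELOVL2, which lengthens polyunsaturated acyl chains, had 1089 counts in SKHEP1 against 4137 in HepG2, 3.46-fold higher in HepG2 (3.24 to 3.70). ELOVL5, which acts on shorter polyunsaturated chains, had 4706 and 2259 counts, 2.29-fold higher in SKHEP1 (2.17 to 2.41). ELOVL1, which makes very long saturated chains, was 2.19-fold higher in SKHEP1, at 2281 and 1143 counts. The share of ELOVL2 in the summed TPM of the 5 elongases listed was 6.36% in SKHEP1 and 32.7% in HepG2. ELOVL6, which extends palmitate to stearate, was close to equal at 734 and 908 counts, with the order turning in TPM (22.2 in SKHEP1, 21.4 in HepG2). ELOVL7 was low in both, at 110 and 326 counts.

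**Figure D2:**
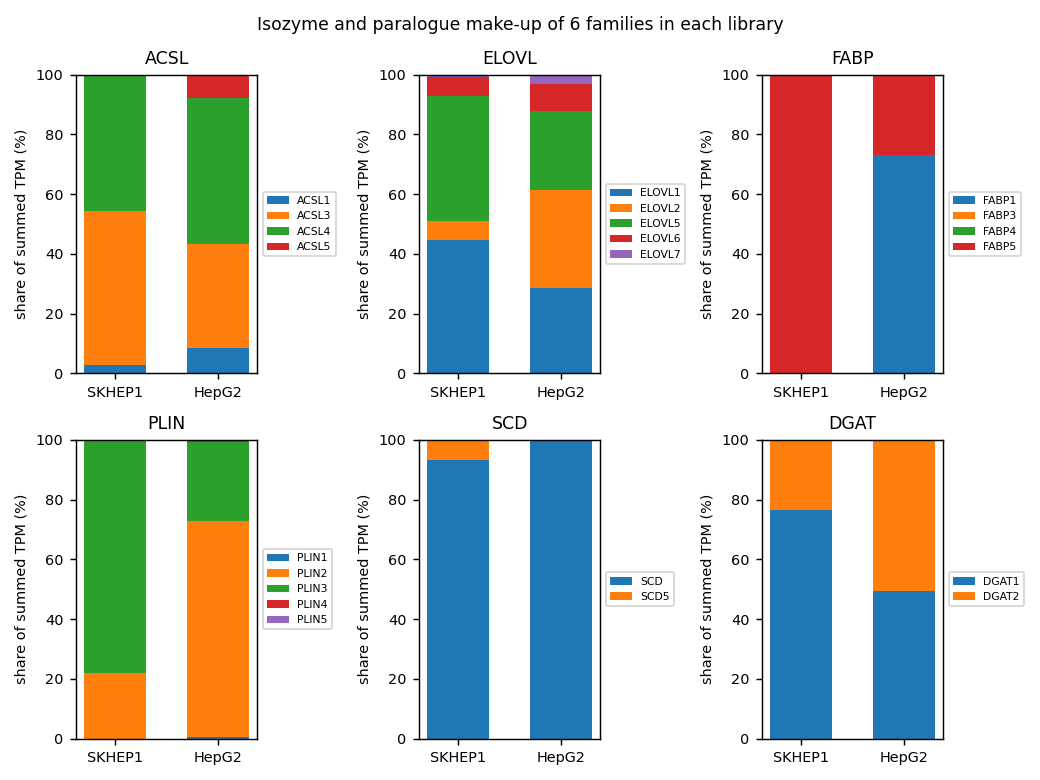
Share of each gene in the summed TPM of its family, in percent, for SKHEP1 (left bar) and HepG2 (right bar), 1 library each. FABP1 makes up 73.2% of the fatty acid binding proteins listed in HepG2 and none in SKHEP1, and PLIN2 makes up 21.9% of the perilipins in SKHEP1 and 72.2% in HepG2.

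Acyl-CoA synthetases, which trap fatty acids in cells as CoA esters, were higher in HepG2 for all 5 members of this role. Of all 15455 genes compared, 7569 were higher in HepG2. ACSL4, which prefers arachidonate, and ACSL3, found on nascent lipid droplets, were the main forms in both lines. ACSL4 had 6443 counts in SKHEP1 against 20133 in HepG2, 2.85-fold higher in HepG2 (2.77 to 2.93), and ACSL3 had 4217 and 7418, a 1.60-fold difference. The forms that were scarce in SKHEP1 differed most. ACSL5, a form abundant in intestine and liver, had 42 and 2208 counts, 47.9-fold higher in HepG2 (35.3 to 66.6). ACSL1, the main form of liver and fat, had 297 and 2504, 7.68-fold higher (6.81 to 8.69). Summed over the 4 ACSL genes, the level was 254 TPM in SKHEP1 and 631 in HepG2, and ACSL1 and ACSL5 made up 2.92% and 0.536% of it in SKHEP1 and 8.49% and 7.85% in HepG2.

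ACSM3, a medium-chain synthetase of mitochondria, had 27 counts in SKHEP1 against 330 in HepG2, 11.1-fold higher in HepG2 (7.51 to 17.2). Its exons overlap those of ERI2 on the opposite strand, which had 242 and 778 counts, so the ACSM3 value is uncertain. ACSL5 likewise overlaps ZDHHC6, which was at 781 and 810 counts.

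The carnitine shuttle was not higher in HepG2 as a whole. CPT1A, the liver form of the outer membrane transferase that controls entry of acyl chains into mitochondria, had 1925 counts in SKHEP1 against 777 in HepG2. It was 2.72-fold higher in SKHEP1 (2.50 to 2.96). The inner membrane transferase CPT2, at 256 and 545 counts, was 1.94-fold higher in HepG2 (1.67 to 2.26). Its exons overlap those of C1orf123 on the opposite strand, which had 511 and 460 counts. The carrier SLC25A20, which exchanges acylcarnitine for carnitine, was at 255 and 374 counts, 1.34-fold higher in HepG2. CPT1C, a form of neurons, was at 0 in both. The summed level of the shuttle members was 55.0 TPM in SKHEP1 and 41.6 TPM in HepG2.

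Mitochondrial beta-oxidation was expressed in both lines, with 6 of 8 members (75%) within 4-fold, near the 70.6% of all genes compared. HADHA and HADHB, the subunits of the trifunctional protein for long chains, were higher in HepG2 by similar factors. HADHA had 4868 counts in SKHEP1 against 8378 in HepG2, a 1.57-fold difference, and HADHB had 2501 and 4492, a 1.64-fold difference. The medium-chain dehydrogenase ACADM was 1.64-fold higher in HepG2, the short-chain hydroxyacyl dehydrogenase HADH 2.00-fold and the hydratase ECHS1 1.26-fold. The very-long-chain dehydrogenase ACADVL went the other way, with 3965 and 2817 counts, 1.55-fold higher in SKHEP1 (1.47 to 1.62). The exons of ACADM overlap those of RABGGTB on the same strand, which had 1306 and 2743 counts. Those of ACADVL overlap DLG4 on the opposite strand, which had 497 and 21 counts.

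The short-chain and long-chain dehydrogenases ACADS and ACADL were past 4-fold, in opposite directions and at low counts. ACADS had 83 counts in SKHEP1 against 383 in HepG2, a ratio of 4.20 whose interval (3.31 to 5.40) includes 4. ACADL had 29 counts in SKHEP1 against 0 in HepG2, higher in SKHEP1 by at least 10.6-fold. Its log2 ratio of -3.41 was -2.42 in TPM with the same floor, since the length assigned differed between the libraries. At 0.97 TPM in SKHEP1 its level was far below the 237 TPM of ACADVL.

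The peroxisomal members were both higher in HepG2. EHHADH, the bifunctional enzyme of peroxisomal beta-oxidation, had 118 counts in SKHEP1 against 1669 in HepG2, 12.9-fold higher (10.7 to 15.7). ACOX2, the oxidase that shortens branched chains and bile acid precursors, had 43 and 836 counts, 17.7-fold higher (13.0 to 24.7). Their summed level was 6.98 TPM in SKHEP1 and 92.3 in HepG2, whereas the summed level of the 8 mitochondrial members was 671 and 798 TPM.

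**Figure D3:**
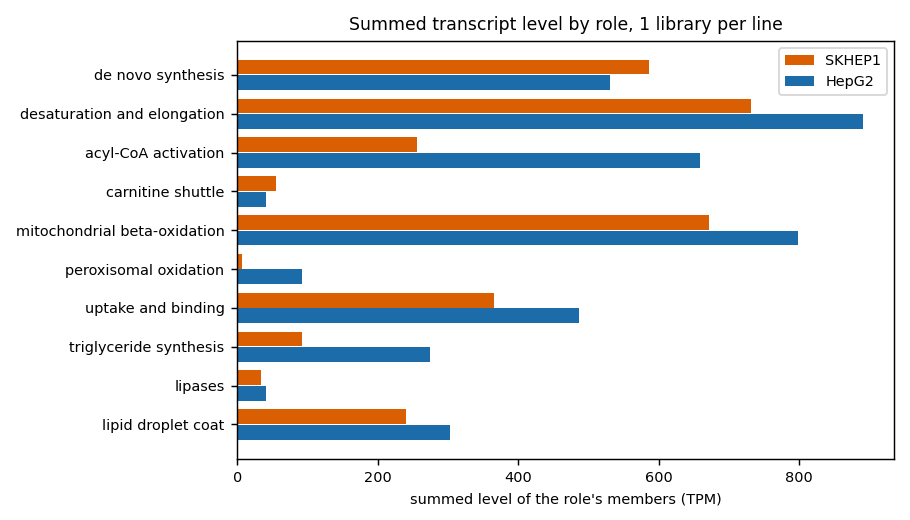
Summed TPM of the members in each role, for SKHEP1 and HepG2, 1 library per bar and no error. De novo synthesis (587 TPM in SKHEP1, 531 in HepG2) and mitochondrial beta-oxidation (671 and 798) have bars of similar length, while peroxisomal oxidation, acyl-CoA activation and triglyceride synthesis have longer HepG2 bars.

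The fatty acid binding proteins, which carry fatty acids in the cytosol, were of different kinds in the lines. FABP1, the liver form, had 0 counts in SKHEP1 against 1638 in HepG2, higher by at least 497-fold in HepG2, a log2 ratio of 8.96 that was 10.49 in TPM with the same floor. At 320 TPM it ranked 422 among the 13418 genes with at least 10 counts in HepG2. FABP5, the epidermal form, had 2820 and 1105 counts, 2.80-fold higher in SKHEP1 (2.61 to 3.01). It ranked 417 among 13846 genes in SKHEP1, at 337 TPM. FABP5 shares reads with its pseudogenes, and 14 of these in the tables held 35.0 and 28.3 expected counts in SKHEP1 and HepG2. The summed level of the FABP genes listed was 337 TPM in SKHEP1 and 436 in HepG2, so the total differed less than its make-up.

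Uptake proteins were low in both lines. The scavenger receptor CD36, which takes up long-chain fatty acids, had 6 counts in SKHEP1 against 181 in HepG2, 27.5-fold higher in HepG2 (12.4 to 75.9), with a log2 ratio of 4.78 that was 5.40 in TPM. SLC27A2, a fatty acid transport protein and very-long-chain synthetase, was at 369 and 512 counts, a 1.26-fold difference. The bile acid conjugation genes were low as well. SLC27A5, which activates bile acids to CoA esters, had 84 and 161 counts, and BAAT, which joins them to glycine or taurine, had 4 and 70, 15.9-fold higher in HepG2 (5.96 to 60.1). CD36 and BAAT were thus past 4-fold at few counts in SKHEP1. The exons of SLC27A5 overlap those of ZNF446 on the opposite strand, which had 114 and 93 counts.

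Of the roles with 4 or more members compared, triglyceride synthesis was the only one with no member within 4-fold. Over all genes compared, 70.6% lay within 4-fold. The steps of triglyceride synthesis did not share a direction. GPAM, the mitochondrial acyltransferase that starts the pathway, had 444 counts in SKHEP1 against 6495 in HepG2, 13.3-fold higher in HepG2 (12.1 to 14.7). Both diacylglycerol acyltransferases, which complete triglyceride, were higher in HepG2. DGAT2 had 99 and 2442 counts, 22.5-fold higher (18.4 to 27.7), and DGAT1 had 263 and 1659, 5.75-fold higher (5.04 to 6.57). The exons of DGAT1 overlap those of HSF1 on the opposite strand, which was at 1028 and 1123 counts.

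AGPAT2 and LPIN1 were higher in SKHEP1. AGPAT2, which adds the second acyl chain, had 324 counts in SKHEP1 against 43 in HepG2, 8.27-fold higher in SKHEP1 (6.01 to 11.7). LPIN1, a phosphatidate phosphatase that makes diacylglycerol, had 2739 and 473, 6.36-fold higher in SKHEP1 (5.76 to 7.02). The paralogues of both in the wider list, picked after values were seen, did not share 1 direction. AGPAT1 (1633 and 2241 counts), AGPAT3 (1845 and 2507) and AGPAT5 (1354 and 1853) were each higher in HepG2, by less than 1.5-fold in CPM, and AGPAT4 had 55 and 1. LPIN3 was 1.31-fold higher in SKHEP1 (418 and 351 counts), and LPIN2 was 5.58-fold higher in HepG2 (384 and 2354 counts). The share of DGAT2 in the summed TPM of the DGAT pair was 23.6% in SKHEP1 and 50.7% in HepG2, while the sum was 19.7 and 175 TPM.

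Among the lipases listed as members, hormone-sensitive lipase was detected in SKHEP1 only. PNPLA2, the adipose triglyceride lipase that starts droplet breakdown, had 297 counts in SKHEP1 against 576 in HepG2, 1.77-fold higher in HepG2 (1.53 to 2.04). PNPLA3, a droplet hydrolase of hepatocytes, was close to equal at 417 and 377 counts, 1.21-fold higher in SKHEP1 (1.05 to 1.40). The exons of PNPLA3 overlap those of SAMM50 on the same strand, which had 1385 and 1728 counts. LIPE, the hormone-sensitive lipase, had 41 and 0 counts, at least 15.0-fold higher in SKHEP1, and its antisense partner LIPE-AS1 had 4 and 0. Of the secreted lipases, endothelial lipase (LIPG) had 0 counts in SKHEP1, the line labelled as endothelial, and 180 in HepG2, higher by at least 54.6-fold in HepG2. Its log2 ratio of 5.77 was 4.67 in TPM with the same floor. Lipoprotein lipase (LPL) was at 0 in both.

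Of the 7 droplet coat genes, 5 were at least 4-fold higher in HepG2, against 13.0% of all genes, while the most abundant perilipins, PLIN2 and PLIN3, were expressed in both lines. PLIN2, the constitutive droplet coat protein of hepatocytes, had 1132 counts in SKHEP1 against 3901 in HepG2, 3.14-fold higher in HepG2 (2.94 to 3.36). PLIN3, an exchangeable perilipin that is also cytosolic, had 4547 and 1939, 2.57-fold higher in SKHEP1 (2.44 to 2.72). The summed level of the 5 perilipins was 239.9 TPM in SKHEP1 and 239.6 in HepG2, with PLIN3 at 78.1% of it in SKHEP1 and 26.6% in HepG2. The promoters of PLIN2 and PLIN3 are printed since this pair exchanged rank between the lines. Capitals mark the same box in PLIN3 and the E-box in PLIN2. PLIN2 lies at chr9:19127443-19127742 and PLIN3 at chr19:4867618-4867917 (GRCh38.p14, both on the minus strand).
PLIN2: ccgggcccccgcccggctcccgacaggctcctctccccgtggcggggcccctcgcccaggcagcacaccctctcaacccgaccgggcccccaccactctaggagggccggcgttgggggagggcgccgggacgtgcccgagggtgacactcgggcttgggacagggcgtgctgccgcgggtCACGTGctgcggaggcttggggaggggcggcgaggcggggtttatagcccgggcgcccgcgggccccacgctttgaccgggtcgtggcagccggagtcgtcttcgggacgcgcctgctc
PLIN3: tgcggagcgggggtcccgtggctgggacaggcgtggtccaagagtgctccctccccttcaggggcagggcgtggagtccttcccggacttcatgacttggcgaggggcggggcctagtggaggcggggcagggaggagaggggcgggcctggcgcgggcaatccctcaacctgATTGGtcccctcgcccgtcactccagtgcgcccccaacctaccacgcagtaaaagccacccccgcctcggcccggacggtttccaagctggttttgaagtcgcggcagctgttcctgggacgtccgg

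The E-box stands in the PLIN2 promoter and CCAAT in that of PLIN3, and neither promoter holds both. The other droplet proteins were at or near 0 in SKHEP1. CIDEB, the CIDE protein of hepatocytes, which acts in droplet fusion and lipoprotein lipidation, had 0 counts in SKHEP1 against 1149 in HepG2, higher by at least 349-fold in HepG2. Its exons overlap those of NOP9 on the opposite strand, which had 1204 counts in SKHEP1 against 5265 in HepG2. CIDEC, a CIDE protein of fat cells, had 0 and 73 counts, at least 22.2-fold higher. PLIN1, the perilipin of adipocytes, had 0 and 50 counts, at least 15.2-fold higher (log2 3.92, and 3.16 in TPM with the same floor), and PLIN4 had 0 and 93, at least 28.2-fold higher. The exons of PLIN4 overlap those of HDGFL2 on the opposite strand, at 762 and 979 counts. PLIN5, the perilipin of oxidative tissues, had 1 and 18 counts, a ratio of 16.4 whose interval (2.59 to 683) includes 4. In HepG2 the levels were 1.25 TPM for PLIN1, 1.05 for PLIN4, 0.55 for PLIN5 and 5.30 for CIDEC, far below the 173 TPM of PLIN2.

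Members at 0 in a single line can be set against the same count over all genes. In SKHEP1 6 compared members had 0 counts (FABP1, LIPG, PLIN1, PLIN4, CIDEB and CIDEC; 11.3%, against 5.10% of all genes compared). In HepG2 3 had 0 counts (SCD5, ACADL and LIPE; 5.66%, against 6.70%). The plot of levels draws these members as open points in the line where they were at 0.

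**Figure D4:**
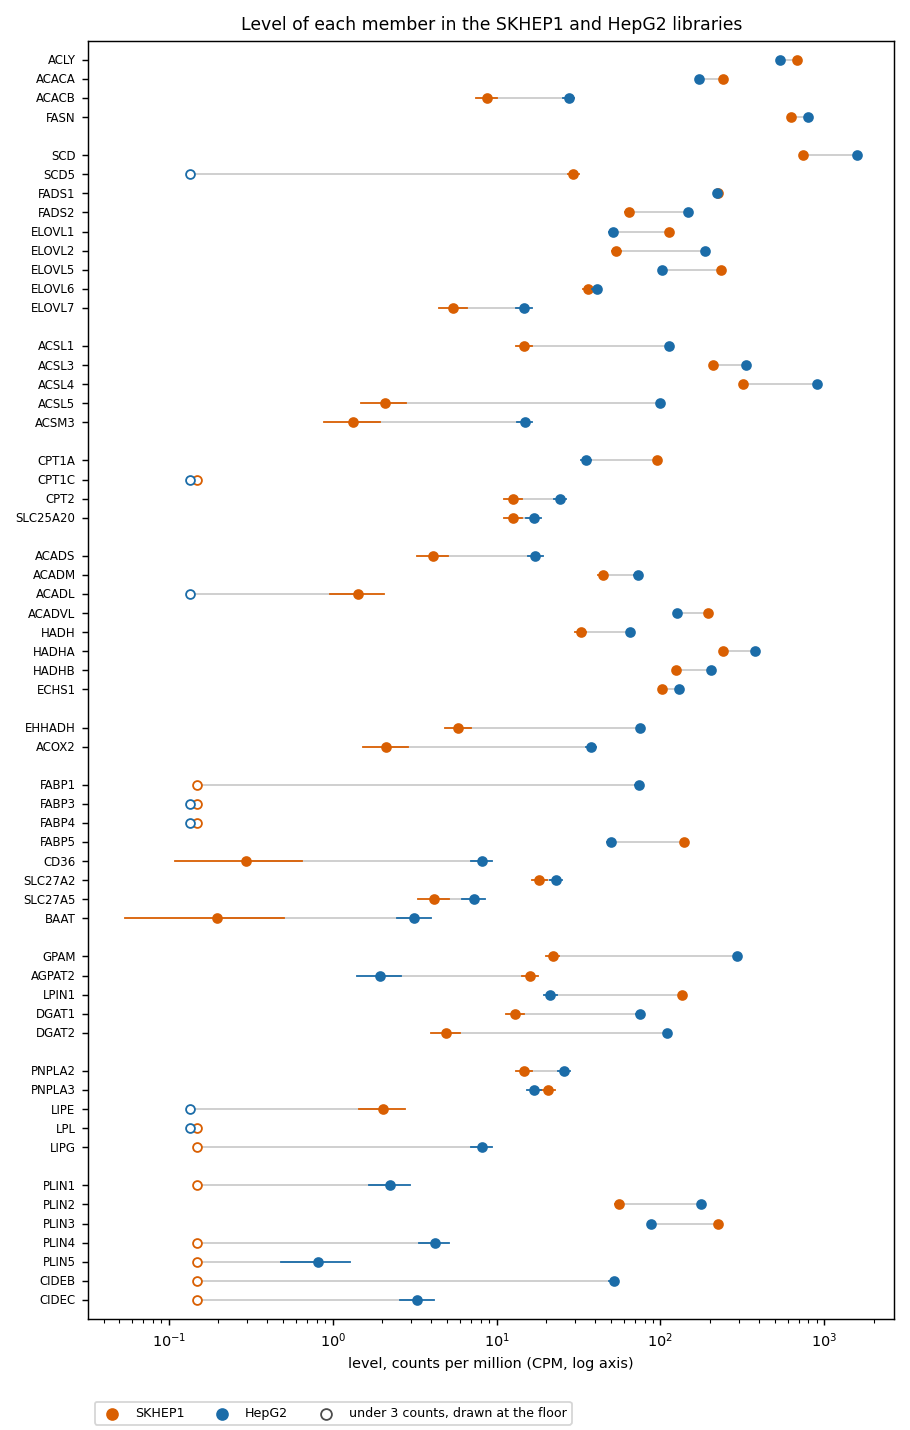
Level of each of the 57 members in CPM on a log axis, in SKHEP1 (orange) and HepG2 (blue), grouped by role from synthesis at the top to droplet coat at the bottom, with horizontal lines for 95% Poisson intervals. Open points are counts under 3, drawn at the floor of 0.148 CPM in SKHEP1 and 0.135 in HepG2; SCD reaches the highest level, 739 and 1584 CPM.

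**Figure D5:**
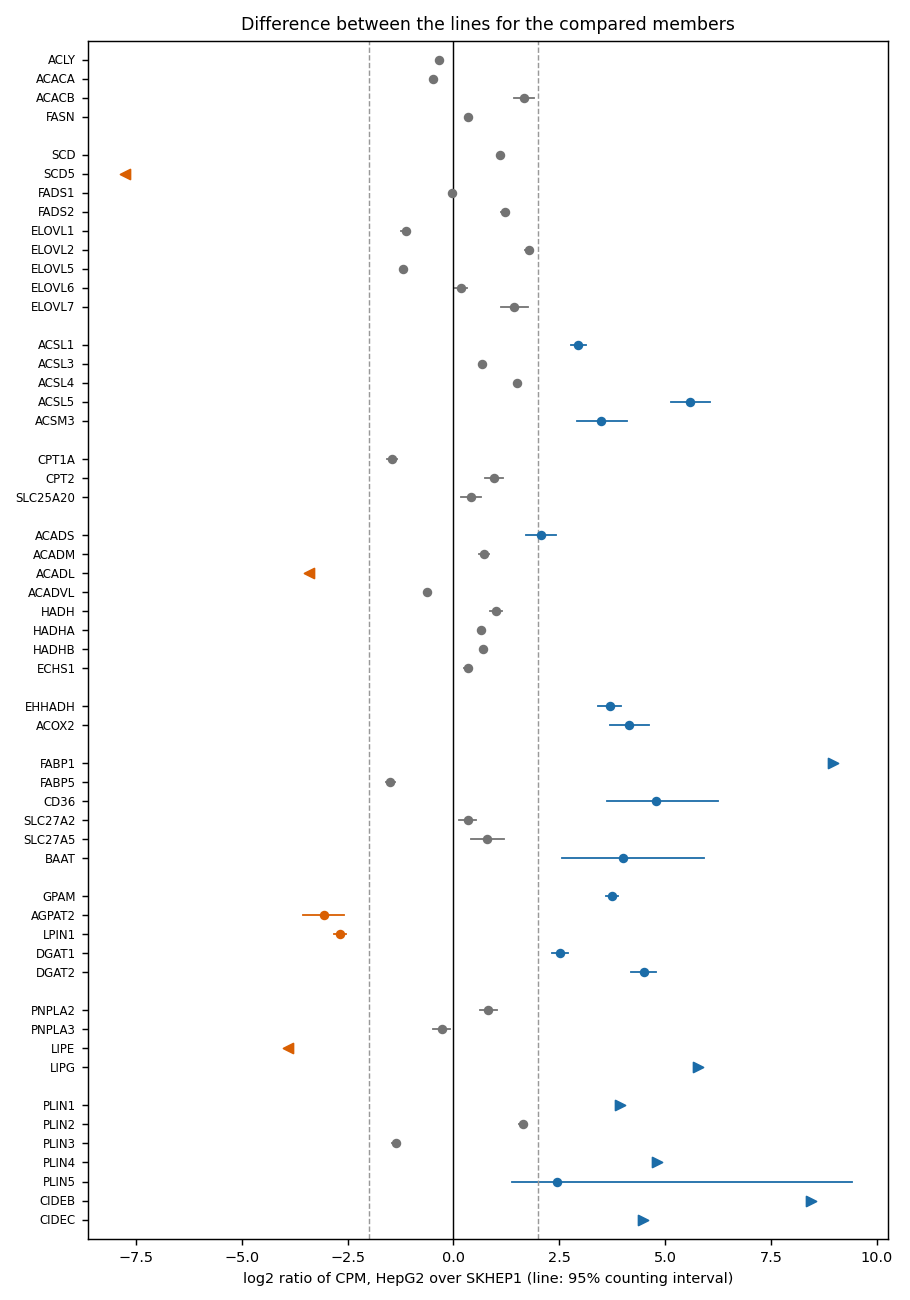
Log2 ratio of CPM, HepG2 over SKHEP1, for the 53 members compared, in the same order, with 95% counting intervals as lines and 4-fold as dashed lines. Triangles are ratios against the floor of 3 counts for members at 0 counts in a line, and PLIN5 is drawn with its SKHEP1 count set to 3. Blue and orange mark the 18 and 5 members at least 4-fold higher in HepG2 and SKHEP1.

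A wider list of 126 other genes of fatty acid and triglyceride metabolism held more genes past 4-fold toward HepG2 than toward SKHEP1. Like the members, it was chosen with earlier results of these data known, so it is not an independent check. Of 111 compared, 29 (26.1%) were at least 4-fold higher in HepG2 and 8 (7.21%) in SKHEP1, against the 13.0% and 16.5% of all genes given above, with a median log2 ratio of 0.48. Peroxisomal genes were higher in HepG2 in 12 of 12 cases, where 7569 of all 15455 genes compared were higher in HepG2. Of the 12, 3 (25%) were past 4-fold, against 13.0% of all genes. The thiolase ACAA1 had 411 counts in SKHEP1 against 3460 in HepG2, 7.67-fold higher, and the enoyl-CoA reductase PECR had 128 and 1764, 12.6-fold higher. In mitochondria, 11 of 14 further genes (78.6%) lay within 4-fold, against 70.6% of all genes compared. The branched short-chain dehydrogenase ACADSB was 15.2-fold higher in HepG2 (428 and 7144 counts; log2 3.93, and 3.30 in TPM), and ETFB, a subunit of the flavoprotein that takes electrons from the acyl-CoA dehydrogenases, 7.58-fold (747 and 6216).

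Of 14 further genes of acyl-CoA activation and hydrolysis, 8 were at least 4-fold higher in HepG2 and 1 in SKHEP1, against 13.0% and 16.5% of all genes. ACSS3, a mitochondrial short-chain synthetase, had 45 counts in SKHEP1 against 3074 in HepG2, 62.2-fold higher. ACSM2B had 0 and 333, at least 101-fold higher. It shares reads with its near copy ACSM2A, which had 0 and 179. The value of each is therefore uncertain, while both were at 0 in SKHEP1. The monoacylglycerol acyltransferases MOGAT2 and MOGAT3, which offer another route to diacylglycerol, had 0 counts in SKHEP1 and 654 and 222 in HepG2. For MOGAT3 the log2 ratio of 6.07 was 5.45 in TPM with the same floor. In the carnitine shuttle, CRAT was 2.25-fold higher in HepG2 and CPT1B 1.55-fold higher in SKHEP1. For uptake and binding, SLC27A1 was 3.02-fold higher in SKHEP1 and the acyl-CoA binding protein DBI 1.73-fold higher in HepG2.

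Of the 111 other pathway genes compared, 3 had 0 counts in HepG2, against 6.70% of all genes compared. In SKHEP1 12 had 0 counts, against 5.10%. The 3 at 0 in HepG2 were MGLL, G0S2 and ME1. MGLL, the lipase that splits monoacylglycerol, had 4899 counts in SKHEP1 against 0 in HepG2, higher in SKHEP1 by at least 1793-fold. Its log2 ratio of -10.81 was -9.60 in TPM with the same floor. The lysosomal acid lipase LIPA, picked after its values were seen, had 4873 and 2360 counts. G0S2, an inhibitor of PNPLA2, had 826 and 0, at least 302-fold higher. Malic enzyme 1 (ME1), which makes cytosolic NADPH, had 610 and 0, at least 223-fold higher. BSCL2, or seipin, a droplet assembly protein, was 4.20-fold higher in SKHEP1 (3.44 to 5.15; within 4-fold in TPM, at a log2 ratio of -1.88), while FITM2, a droplet protein of the endoplasmic reticulum, was 3.08-fold higher in HepG2. Malonyl-CoA decarboxylase (MLYCD) was 3.15-fold higher in HepG2, and the dehydratase HACD1 and the desaturase-like FADS3 were higher in SKHEP1, 2.94-fold and 2.66-fold.

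Of 6 ketone body genes, 3 were at least 4-fold higher in HepG2 and 1 in SKHEP1, against 13.0% and 16.5% of all genes, so the SKHEP1 share was near that of all genes. BDH1, the hydroxybutyrate dehydrogenase, had 1 count in SKHEP1 against 236 in HepG2, a ratio of 215 (38.2 to 8526). OXCT1, the enzyme that tissues other than liver use to burn ketone bodies, had 1377 and 144 counts, 10.5-fold higher in SKHEP1 (8.84 to 12.6).

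Among regulators of these pathways, 7 of 13 were at least 4-fold higher in HepG2 and none in SKHEP1, against 13.0% and 16.5% of all genes. Without a fold limit, 8 of the 13 were higher in HepG2 and 5 in SKHEP1, where 7569 and 7886 of all 15455 genes compared were. SREBF1, the sterol-regulated activator of fatty acid synthesis genes, had 1944 counts in SKHEP1 against 1518 in HepG2, 1.41-fold higher in SKHEP1. MLXIPL, the carbohydrate-responsive activator of the same genes, had 3 and 1392, a ratio of 423 (144 to 2052). PPARA, the fatty acid receptor that controls oxidation genes, had 148 and 969 counts, 5.96-fold higher in HepG2 (5.01 to 7.14). Its coactivator PPARGC1A had 2 and 341, a ratio of 155 (42.7 to 1288). PPARG, the receptor of fat cell differentiation, had 26 and 321, 11.2-fold higher in HepG2 (7.53 to 17.5). SREBF1 was thus within 1.5-fold in CPM, whereas MLXIPL, PPARA, PPARG and PPARGC1A were higher in HepG2. Whether any regulator sets the levels of the lipid genes was not tested.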

How the data were processed

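RNA was column-purified and made into stranded mRNA libraries, per the labels' protocols. Per the submitters' processing notes, cutadapt, STAR, RSEM and DESeq2 were used with build hg19. Their versions, the annotation and the strand option of RSEM were not given in the sources used here. The deposited tables hold RSEM expected counts, TPM, FPKM and isoform-weighted lengths, per the file headers. Expected counts were rounded and scaled to CPM of TMM effective library sizes (edgeR 4.0.16, R 4.3.3). A gene entered the comparison with 10 or more counts in one of the libraries, and counted as higher from 4-fold on. In ratios, counts under 3 were set to 3 per library. Where a gene had 1 to 3 counts, the raw ratio is printed. Levels have exact Poisson intervals and ratios exact conditional Clopper-Pearson intervals, at 95%. No difference between lines was tested.

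The members and lists were chosen with earlier results of these data known. All members are named. Of the other pathway genes, up to 2 per role with the largest ratio and at least 100 counts were named, with 5 regulators. The AGPAT and LPIN paralogues, LIPA and the genes in the closing observations were chosen after their values were seen. Exon overlaps were read from GENCODE release 29 by stable identifier, which matched 56 members. Of these, 27 had an exon overlapping another gene, 22 on the opposite strand and 8 on the same strand. Promoters came from RefSeq, in another build than the counts, and a further string searched in them is not reported here. The calculation was tested on simulated data. Further software was scipy 1.17.1, pandas 2.3.3, numpy 2.4.6 and, for plots, matplotlib 3.10.9 under Python 3.11.15. Alternatives were total counts, DESeq2 1.42.0 size factors, upper-quartile factors, TPM, FPKM, unrounded counts, a prior count of 2, other count minimums and fold limits, the nearer counting limit, and the mean.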

Additional observations from a re-analysis of the deposited data

How the results depend on the processing

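All alternatives were planned. The member counts of 18 and 5 were the same under all 3 other scalings, TPM, FPKM, unrounded counts and the prior count, and no member's call differed under these. Over all genes compared, the shares under these settings were 12.3% to 13.4% for HepG2 and 15.9% to 16.8% for SKHEP1. The members' median log2 ratio lay between 0.89 and 1.00 under every alternative except the mean, which gave 1.31; the mean for the other pathway genes was 0.93. With a limit of 2-fold, 26 members were higher in HepG2 and 10 in SKHEP1, and of the other pathway genes 48 and 15. With 8-fold these were 14 and 4 members, and 17 and 5 other genes. No share over all genes is given at either limit, so these counts describe the lists only. With a minimum of 50 counts, 17 and 3 members remained past 4-fold, since PLIN5, ACADL and LIPE were no longer compared. Of all genes compared at that minimum, 11.8% were past 4-fold toward HepG2 and 13.9% toward SKHEP1. Requiring the nearer counting limit to pass 4-fold left 16 and 5 members, without ACADS and PLIN5, and no share over all genes is given for this setting. Of 80 genes, members compared and others named, FADS1 and ELOVL6 were the 2 whose ratio changed sign under a scaling, unit, rounding or prior count, between -0.10 and 0.0045 and between -0.05 and 0.21 on the log2 scale. Taking each of these genes under each such setting, 68 log2 ratios left the gene's main counting interval and 492 stayed within it. For SCD, FASN and ACLY the ratio left it under all 3 other scalings, TPM and FPKM. The log2 ratio of SCD ran from 1.04 to 1.14, against a counting interval of 1.07 to 1.13. For these 3 genes the printed intervals are narrower than the spread from scaling and unit. In TPM the calls of the other pathway genes numbered 27 and 7, with BSCL2 among those lost. In TPM and with counts under 3 set to 3, the log2 ratio was 5.28 for BDH1 (6.16 in CPM), 5.58 for PPARGC1A (6.69) and 9.27 for MLXIPL (8.72). Counts under 10 in the lower library, as for CD36, BAAT and PLIN5, limit the precision of their ratios. No paired analysis was possible because each line has 1 library.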

Other observations

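Further pathway genes were singled out after their values were seen. The oxysterol receptor NR1H3, which acts upstream of SREBF1, had 27 counts in SKHEP1 and 358 in HepG2, and its partner RXRA had 308 and 1922. Other regulators were higher in SKHEP1, with 707 and 235 counts for NR1H2, 715 and 571 for PPARD, and 237 and 110 for PPARGC1B. CREB3L3, a liver factor of fasting metabolism, had 0 and 132. Hepatic lipase (LIPC) had 0 and 439, and ACSL6, the ACSL form of brain and blood cells, had 0 and 159. The mitochondrial thioesterase ACOT9 went the other way with 2406 and 578 counts, as did ABHD5, the activator of PNPLA2, with 520 and 171. PNPLA2 itself was within 2-fold, while its activator and its inhibitor G0S2 were both higher in SKHEP1. FASN stood at 6.92 times the TPM of CPT1A in SKHEP1 and 21.5 times in HepG2, and SCD at 6.64 and 36.5 times.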
